A study of Homo sapiens with 11 samples.

Results

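The heat shock chaperone genes described here are HSP90AA1, HSP90AB1, HSPA8, HSPA4, HSPH1, DNAJB1, BAG3, HSPD1, HSPE1 and HSPB1. Each was read through the probe sets that the array annotation gives to that gene alone, singly and as their mean. Of the 10 genes, 9 were measured in this way, by 24 probe sets, out of 19775 genes and 41091 probe sets with a single gene in the whole series. HSPA8, the constitutive cytosolic Hsp70, has 4 probe sets, and each is also annotated to the small nucleolar RNA genes SNORD14C and SNORD14D. It therefore has no gene value here, and those 4 shared probe sets stayed between -0.30 and 0.26 on all 11 arrays.

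RNA came from MDA-MB-231, a human triple-negative breast cancer cell line, and was hybridised to 11 Affymetrix HG-U133 Plus 2.0 arrays. All cells were kept in charcoal-stripped serum for 4 h and then treated for 3 h. Single arrays held cells given 1 µM E2-BSA (estradiol joined to bovine serum albumin) with 10 µM ICI, an antagonist named in the labels only by these letters, or with 10 µM G15, an antagonist of the membrane estrogen receptor GPER. Another 2 arrays held cells given E2-BSA alone at 1 µM. The remaining treatments had 1 array each: 1 µM estradiol, 10 µM ICI, 10 µM G15, 1 µM of the carrier BSA, and 0.1% of the vehicle ethanol. The untreated control had 2 arrays. The labels do not say that duplicates were separate cultures, so p-values measure a spread between arrays that may be technical. A group with 1 array has no replicate check and was assumed to vary like the rest. In fits with a mean per group, the spread came from the duplicates alone. With a term per treatment, it also held any departure of E2-BSA with ICI or G15 from the sum of their effects.

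Every value is on a log2 scale relative to the probe set's own centre, so differences between arrays can be read but no level of a gene, and the markers of the cell line could not be checked. The 24 poly-A spike-in probe sets parted the arrays into a set of 3 (first E2-BSA, estradiol, first control; means 1.40 to 1.62) and a set of 8 (means -0.56 to 0.10). Comparisons between treatments were therefore read within a set where both arrays lay in it, and the fits reported here held a term for the set. The array with E2-BSA and G15 also stood apart in the 3 probe sets for 18S ribosomal RNA, at -1.65, against -0.28 to 0.35 on the other 10 arrays. Its poly-A mean of 0.10 was also the highest in the set of 8, where the other 7 arrays lay between -0.56 and -0.29. The ethanol array stood apart in the 18 hybridisation controls, at 0.77 against -0.28 to 0.21. In bulk RNA, fewer cells that express a gene and less RNA of it per cell cannot be told apart.

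Heat shock proteins fold new chains and refold or hold damaged ones. Hsp70 proteins take up unfolded stretches with the help of J-domain proteins and nucleotide exchange factors, Hsp90 proteins finish many kinases and steroid receptors, the HSPD1 and HSPE1 chaperonin folds proteins in mitochondria, and small heat shock proteins hold clients without using ATP. Heat, oxidants, ethanol and other damage to proteins activate the transcription factor HSF1, which binds repeats of the unit GAA, alternately turned, in the promoters of many of these genes. Steroid receptors that have not bound hormone are themselves held by Hsp90.

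The repeats were searched in 16 promoter windows of the 10 genes, each from 250 bases before to 50 after a transcription start (RefSeq, GRCh38.p14). An element of 3 units, GAANNTTCNNGAA or TTCNNGAANNTTC, stood in a window of HSP90AA1, HSP90AB1, HSPD1 and HSPA8, that is 4 of 16 windows, against 172 of 35116 windows of all genes (0.49%). DNAJB1 and HSPB1 held only GAANNTTC or TTCNNGAA, which 13.5% of all windows hold and which lies inside the longer element. Both forms of each element were searched, which covers both strands. Windows of HSPE1, HSPA4, BAG3 and HSPH1 had neither, which says only that these letters were not in those windows. One window is shown for each measured gene with a match. Capitals mark every match of either element, each window runs 5′ to 3′ on the gene's strand, and a match is no evidence of binding. They lie at chr14:102086995-102087294 (minus strand), chr6:44247693-44247992 (plus), chr2:197499791-197500090 (minus), chr19:14518348-14518647 (minus) and chr7:76302423-76302722 (plus), in the order printed.
HSP90AA1: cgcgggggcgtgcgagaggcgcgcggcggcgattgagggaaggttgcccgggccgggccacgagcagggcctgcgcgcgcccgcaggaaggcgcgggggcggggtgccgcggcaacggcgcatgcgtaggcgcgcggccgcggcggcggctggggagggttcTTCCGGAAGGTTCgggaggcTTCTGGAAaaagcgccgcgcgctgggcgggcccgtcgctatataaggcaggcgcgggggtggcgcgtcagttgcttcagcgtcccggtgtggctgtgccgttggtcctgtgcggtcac
HSP90AB1: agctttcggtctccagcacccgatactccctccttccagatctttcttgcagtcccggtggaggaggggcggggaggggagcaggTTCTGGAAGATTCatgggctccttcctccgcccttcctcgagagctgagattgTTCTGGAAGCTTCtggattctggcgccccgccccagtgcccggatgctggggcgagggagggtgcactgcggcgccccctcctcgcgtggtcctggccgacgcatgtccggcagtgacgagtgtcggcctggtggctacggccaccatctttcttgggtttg
HSPD1: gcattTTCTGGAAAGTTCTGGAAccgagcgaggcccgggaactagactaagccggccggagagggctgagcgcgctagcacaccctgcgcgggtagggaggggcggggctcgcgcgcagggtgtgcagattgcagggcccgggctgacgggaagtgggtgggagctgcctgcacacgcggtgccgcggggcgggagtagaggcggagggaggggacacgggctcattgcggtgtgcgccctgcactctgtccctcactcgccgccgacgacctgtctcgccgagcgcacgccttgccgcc
DNAJB1: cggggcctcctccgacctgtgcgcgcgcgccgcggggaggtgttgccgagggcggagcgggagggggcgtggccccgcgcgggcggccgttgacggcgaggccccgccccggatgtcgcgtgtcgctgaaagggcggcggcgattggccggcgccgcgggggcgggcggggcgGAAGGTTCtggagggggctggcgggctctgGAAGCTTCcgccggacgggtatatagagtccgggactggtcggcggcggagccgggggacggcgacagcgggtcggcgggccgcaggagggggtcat
HSPB1: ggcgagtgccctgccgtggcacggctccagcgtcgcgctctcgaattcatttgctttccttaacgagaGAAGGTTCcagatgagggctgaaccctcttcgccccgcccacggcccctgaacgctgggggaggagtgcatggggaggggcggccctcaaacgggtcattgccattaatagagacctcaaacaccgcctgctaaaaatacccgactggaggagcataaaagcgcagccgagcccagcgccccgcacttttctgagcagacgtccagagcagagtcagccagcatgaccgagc

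In the gene fit over all 11 arrays, no treatment moved any of the 9 genes past the test. Limma was fitted to all 19775 genes over the 11 arrays, with Benjamini-Hochberg adjustment at 0.05 and 3 residual degrees of freedom. For E2-BSA present against absent it called 0 of the 9 genes and 0% of all genes, with 927 of all genes and 0 members at an unadjusted p under 0.05. Fitted differences of the members ran from -0.21 to 0.04, with a median of -0.12 against -0.02 for all genes, and adjusted p from 0.903 to 0.982. In single same-set pairs, the member median was 0.10 for the first E2-BSA and control arrays and -0.06 for the second. It was 0.05 with ICI in both arrays and -0.56 with G15 in both. ICI and G15, each present against absent, also called 0 of 9 and 0% of all genes, with 3219 and 2042 of all genes at an unadjusted p under 0.05. The other background shares were 0.354% for BSA, 0.086% for ethanol and 0% for estradiol (1397 at an unadjusted p under 0.05), each against control, and again 0 of 9 members passed. Members at an unadjusted p under 0.05 numbered 2 for ICI, 0 for G15, 1 for BSA, 1 for ethanol and 0 for estradiol. Of all genes, 3178 were at such a p for BSA and 1256 for ethanol.

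**Figure D1:**
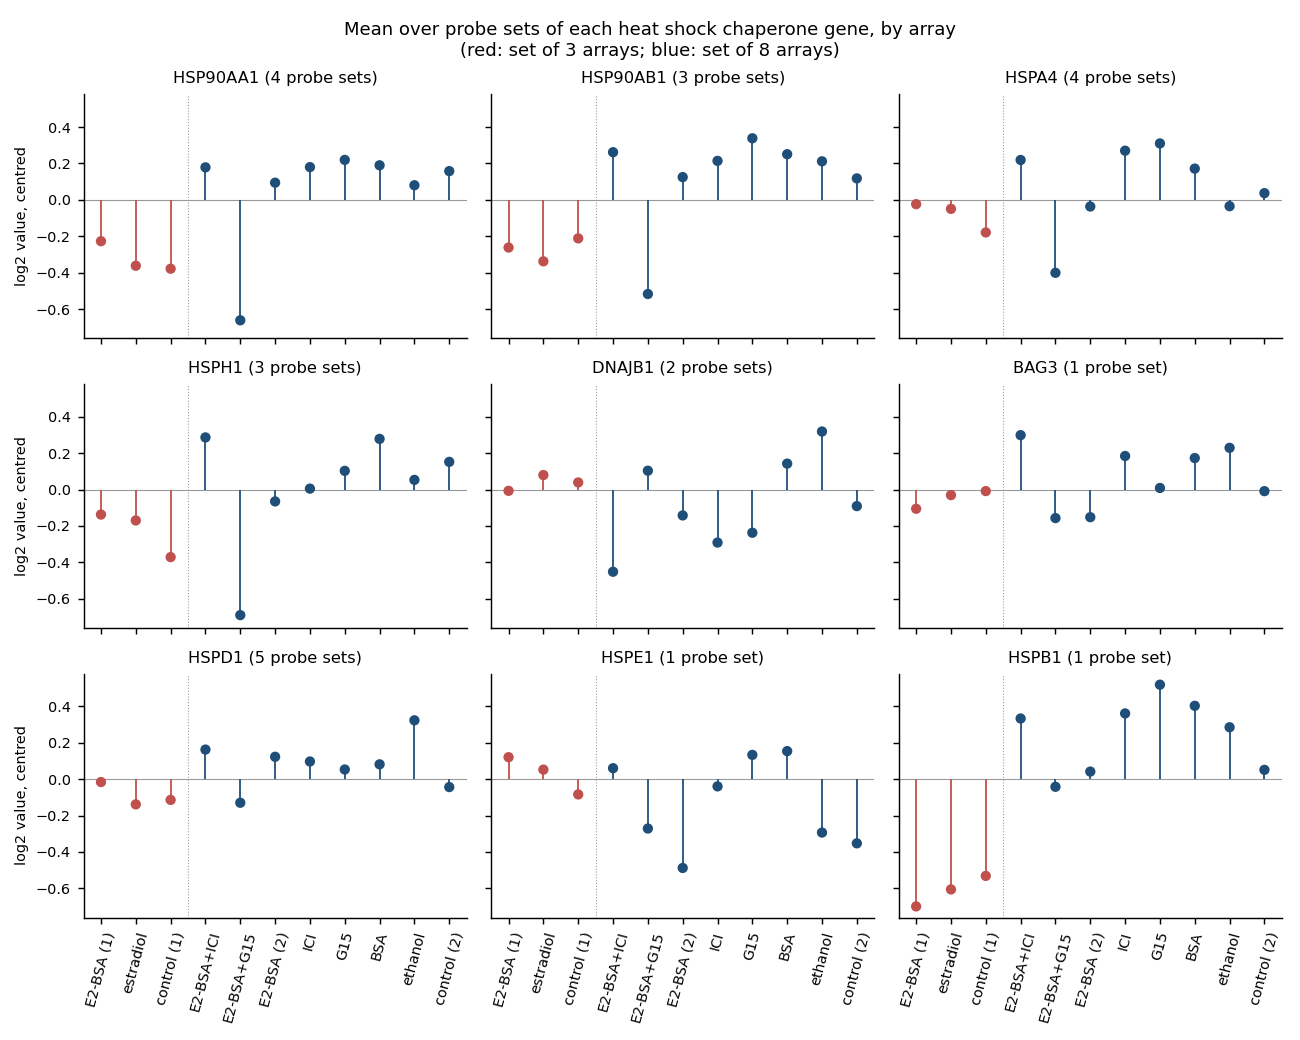
Centred log2 value of each gene (mean over its probe sets) on every array, in 9 panels; red points are the set of 3 and blue points the set of 8, left and right of the dotted line, and numbers in brackets tell duplicates apart. HSP90AA1, HSP90AB1, HSPA4 and HSPH1 have their lowest value on the array with E2-BSA and G15, and HSPB1 parts the sets.

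HSP90AA1 encodes the stress-inducible cytosolic Hsp90. It was at -0.66 on the array with E2-BSA and G15, against 0.22 with G15 alone and 0.09 on the second E2-BSA array, its same-set partners. The other 5 arrays of the set of 8 were at 0.18 with E2-BSA and ICI, 0.18 with ICI, 0.19 with BSA, 0.08 with ethanol and 0.16 in the control, and the set of 3 was at -0.23 with E2-BSA, -0.36 with estradiol and -0.38 in the control. The E2-BSA and G15 array was thus the lowest of all 11, and the other 7 of its set lay within 0.14 of each other. HSP90AB1, the constitutive Hsp90, had the same order of extremes, at -0.52 with E2-BSA and G15 against 0.34 with G15 alone and 0.13 with E2-BSA alone. Its remaining values were 0.12 to 0.26 in the set of 8 and -0.34 to -0.21 in the set of 3.

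The means combined probe sets that parted from each other. Affymetrix adds _s_at to a probe set that reads several transcripts and _x_at to one with probes that also match other sequences. HSP90AA1, HSP90AB1, HSPD1, HSPE1 and HSPB1 also have pseudogenes, so their values may include other RNA. On the E2-BSA and G15 array the HSP90AA1 probe sets 211968_s_at and 211969_at were at -1.54 and -1.14, against 0.32 and 0.31 with G15 alone. The other 7 arrays of the set of 8 held both between 0.15 and 0.32. The probe sets 210211_s_at and 214328_s_at, which also read HSP90AA1, were at 0.02 and 0.02 with E2-BSA and G15, against 0.19 and 0.06 with G15 alone. For HSP90AB1, 1557910_at was at -1.92 with E2-BSA and G15 and at 0.76 with G15 alone, while 200064_at was at 0.13 and 0.17 and 214359_s_at at 0.24 and 0.09. The 7 other arrays of the set of 8 had 1557910_at between 0.33 and 0.76. The drop was therefore in 2 of 4 HSP90AA1 and 1 of 3 HSP90AB1 probe sets, and the sister probe sets on that array differed from G15 alone by -0.17 to 0.16.

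HSPA4 and HSPH1 are relatives of Hsp70 that act as its nucleotide exchange factors, and both showed the same division. HSPH1 208744_x_at was at -2.28 with E2-BSA and G15, against 0.65 with G15 alone and 0.31 with E2-BSA alone, the lowest of all 24 probe sets on any array. The other HSPH1 probe sets were at -0.03 (206976_s_at) and 0.24 (235573_at) with E2-BSA and G15, against 0.06 and -0.41 with G15 alone, so 235573_at lay on the opposite side. HSPA4 208814_at was at -1.09 with E2-BSA and G15 against 0.70 with G15 alone, where the other 7 arrays of the set of 8 held 0.16 to 0.73. The 3 other HSPA4 probe sets differed between the same arrays by -0.17, -0.28 and -0.61. As gene means, HSPH1 was at -0.69 with E2-BSA and G15 against 0.10 with G15 alone, and HSPA4 at -0.40 against 0.31.

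**Figure D2:**
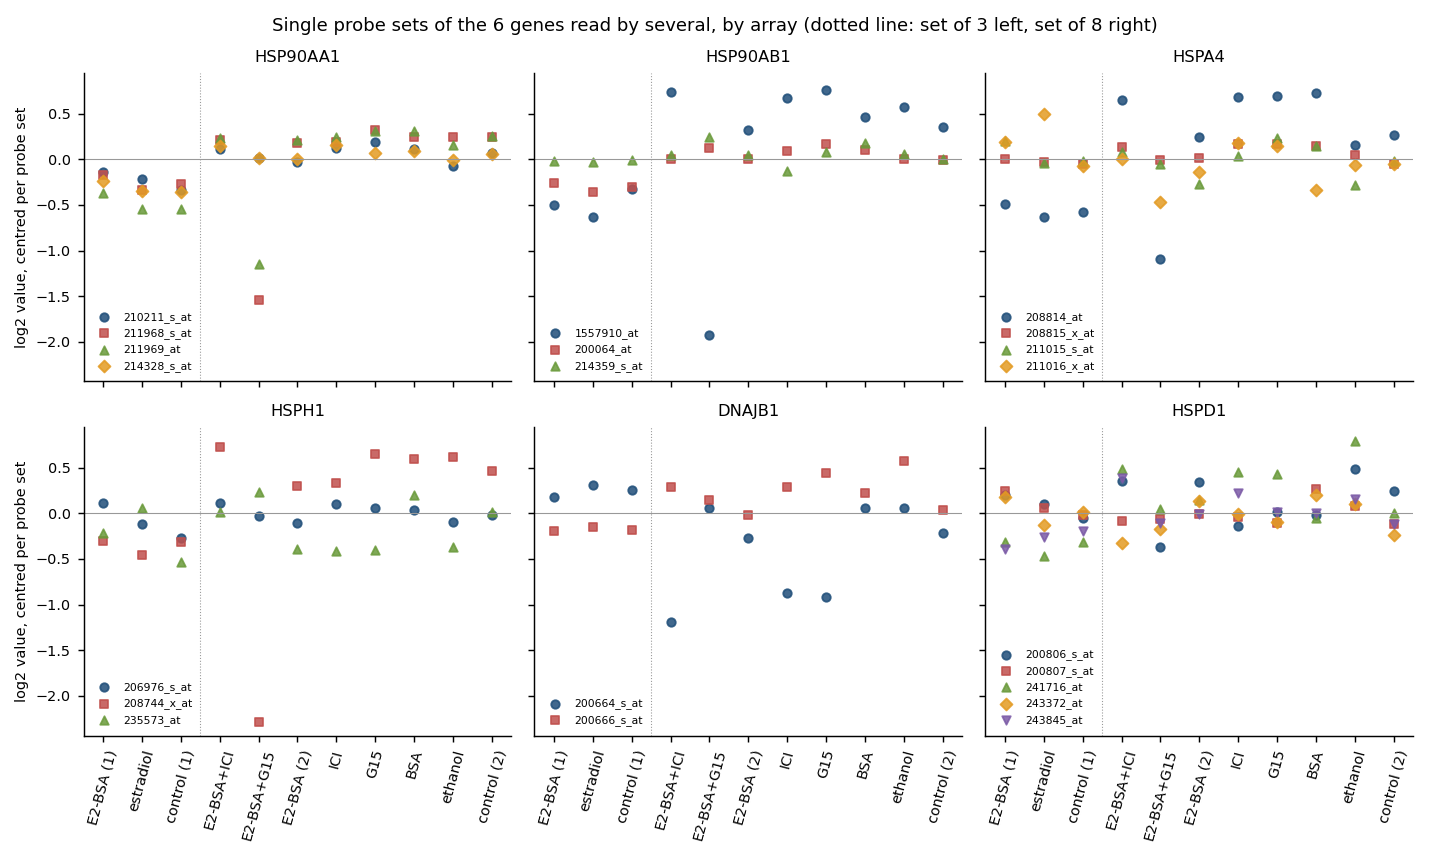
Centred log2 value of each probe set of the 6 genes that several probe sets read, by array; marker and colour tell the probe sets of a gene apart. On the array with E2-BSA and G15, 5 probe sets of 4 genes lie between -2.28 and -1.09 while the other 9 probe sets of those genes do not, and DNAJB1 200664_s_at is low on the ICI, G15 and E2-BSA with ICI arrays.

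Across the series, 5 of the 24 member probe sets (20.8%) were lower by over 1 with E2-BSA and G15 than with G15 alone, against 1264 of 41091 probe sets (3.08%). Set against the second E2-BSA array, the same 5 probe sets were lower by over 1, against 2.51% of all probe sets; both comparisons share the E2-BSA and G15 array. The other 9 probe sets of the same 4 genes differed from G15 alone by -0.61 to 0.64, with a median of -0.09. Of the 1264 probe sets, 1224 had sister probe sets of the same gene, whose median difference was -0.21, against -0.07 for all probe sets. Because the 1264 were chosen as low, smaller differences in their sisters follow in part from that choice. How many genes were split in this way was not counted. HSPH1 had a range of 3.58 between its probe sets, which 0.266% of 10523 genes with several probe sets reached. The corresponding ranges were 2.84 for HSP90AB1 (reached by 1.25% of genes), 1.81 for HSP90AA1 (5.28%) and 1.62 for HSPA4 (6.77%), against a median of 0.40. A range grows with the number of probe sets. Among genes with as many, the shares were 0.324% for HSPH1, 0.971% for HSP90AB1, 9.19% for HSP90AA1 and 11.7% for HSPA4. These 4 genes were singled out for a low probe set in this same pair, so wide ranges follow from that choice. DNAJB1, with a range of 1.28 (reached by 9.85% of genes), and HSPD1, with 0.43 (47.3%), were not chosen that way. Among genes with as many probe sets, their shares were 4.21% and 81.2%.

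The test of the difference itself, the E2-BSA by G15 interaction, needed a mean per group and had 1 residual degree of freedom. Fitted to gene means, it called 0 of 9 members and 0.0101% of all genes, all of them lower. The 4 genes nearest to a call were HSP90AA1 at -0.93 ± 0.20 (SE), HSP90AB1 at -0.83 ± 0.19, HSPA4 at -0.75 ± 0.21 and HSPH1 at -0.80 ± 0.24, with adjusted p from 0.181 to 0.307. These gene values depended on how probe sets were combined. With the median over probe sets they were -0.85, -0.09, -0.52 and -0.08, and without _s_at and _x_at probe sets -1.52, -1.32, -1.82 and 0.69, in the same order of genes. Quantile normalization gave -0.55, -0.52, -0.59 and -0.33. Fitted to single probe sets, an analysis added after the division had been seen, limma called 5 of 24 member probe sets, all lower, against 2.16% of 54613 probe sets called lower. HSPH1 208744_x_at had -2.86 ± 0.27 (limma adjusted p = 7.5e-04), HSP90AB1 1557910_at -2.58 ± 0.27 (adjusted p = 9.6e-04) and HSP90AA1 211968_s_at -1.87 ± 0.26 (adjusted p = 0.0040). HSPA4 208814_at had -1.82 ± 0.27 (adjusted p = 0.0052) and HSP90AA1 211969_at -1.52 ± 0.26 (adjusted p = 0.012, and 0.059 after quantile normalization).

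The E2-BSA and G15 array is the only one of its group, so the treatment and the array cannot be told apart, and the part of its low 18S ribosomal RNA and raised poly-A controls in the low probe sets was not tested. Its 3′ minus 5′ differences, a sign of RNA quality, were -0.15 for GAPDH and -0.17 for ACTB, against -0.11 to 0.08 and -0.31 to 0.35 on the other arrays. In the other same-set pairs with E2-BSA against without it, 0 of the 24 probe sets were lower by over 1. Their differences lay between -0.20 and 0.38 for the first E2-BSA and control arrays (0.552% of all probe sets lower by over 1), between -0.41 and 0.38 for the second (0.00487%), and between -0.33 and 0.49 with ICI in both arrays (0.0146%). The E2-BSA by ICI interaction called 0 of 9 genes and 0% of all genes, with 584 of all genes and 0 members at an unadjusted p under 0.05.

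**Figure D3:**
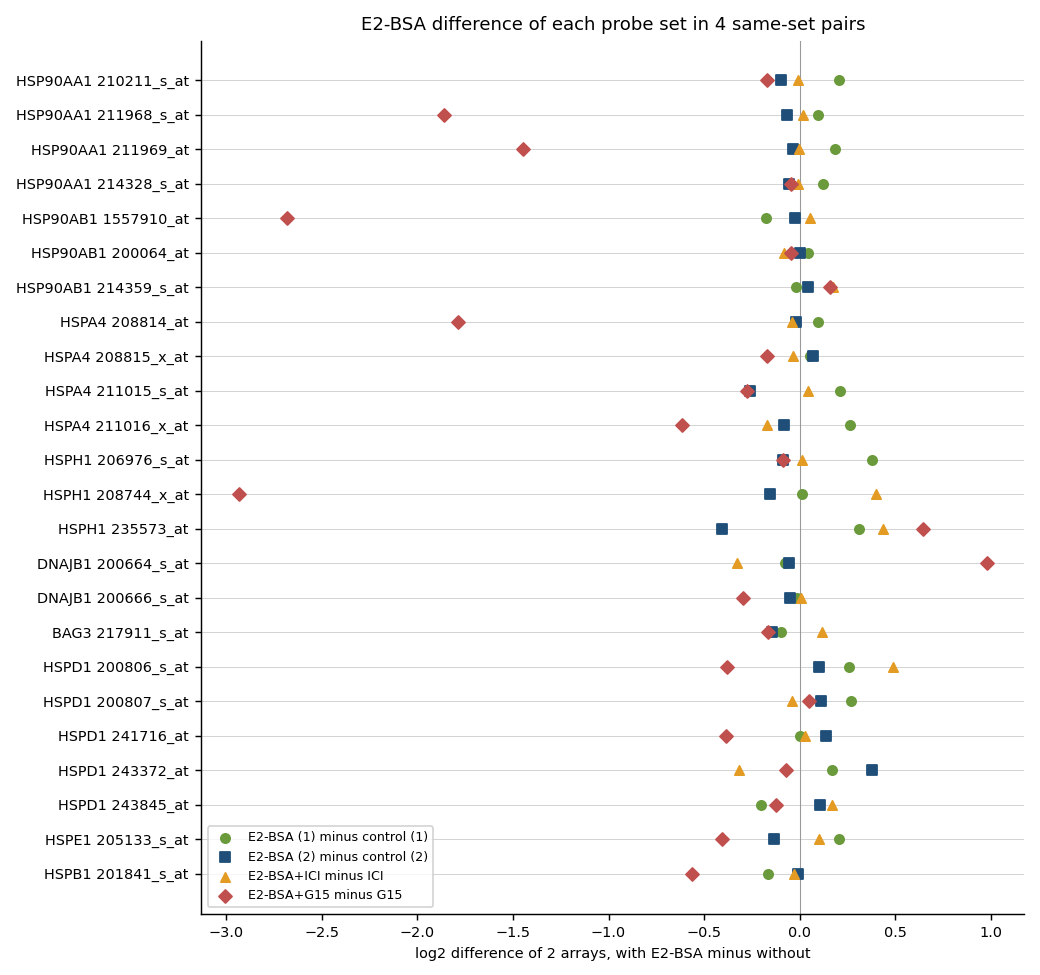
Log2 difference of each of the 24 probe sets between an array with E2-BSA and its same-set partner without it, in 4 pairs. With G15 in both arrays (red diamonds) 5 probe sets lie between -2.93 and -1.45, while in the other 3 pairs all 24 lie between -0.41 and 0.49.

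DNAJB1, the J-domain protein that delivers clients to Hsp70, and BAG3, an exchange factor that links Hsp70 to autophagy, are the co-chaperones of the group. The mean of DNAJB1 was at -0.45 with E2-BSA and ICI, -0.29 with ICI and -0.24 with G15, the lowest 3 of the 11 arrays. It was at 0.10 with E2-BSA and G15, 0.32 with ethanol, 0.14 with BSA, -0.14 with E2-BSA and -0.09 in the control of the same set, and between -0.01 and 0.08 in the set of 3. Here too the probe sets parted. DNAJB1 200664_s_at was at -1.20 with E2-BSA and ICI, -0.87 with ICI and -0.92 with G15, against -0.27 to 0.06 on the other 5 arrays of the set. DNAJB1 200666_s_at was at 0.29, 0.29 and 0.45 on the same 3 arrays, above the control at 0.03.

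With ICI against without it, 200664_s_at differed by -0.65 beside the control and by -0.93 beside E2-BSA, so both pairs went the same way. With G15 it differed by -0.71 beside the control and by 0.33 beside E2-BSA, so those pairs went opposite ways. On the array with E2-BSA and G15 it was 0.98 higher than with G15 alone, opposite to the 5 low probe sets there. Its E2-BSA by G15 interaction was 1.05 ± 0.26, which was not called. The gap between the 2 DNAJB1 probe sets in the ICI pair with E2-BSA was 1.24, reached by 1.45% of genes with several probe sets and 0.818% of those with 2. This probe set was singled out after its values were seen, and limma on single probe sets called 0 of 24 members and 0% of all for ICI. At an unadjusted p under 0.05 were 5 of 24 members and 6343 of all 54613 probe sets. BAG3 was at 0.30 with E2-BSA and ICI against -0.15 with E2-BSA, and at 0.18 with ICI against -0.01 in the control. Its fitted ICI difference of 0.32 ± 0.11 did not pass (limma adjusted p = 0.280), where all genes had a median of 0.14. With G15, BAG3 differed by 0.02 beside the control and by less than 0.01 beside E2-BSA.

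HSPD1 and HSPE1 encode the Hsp60 and Hsp10 of the mitochondrial chaperonin and lie head to head on chromosome 2, with 104 bases between them. The 5 probe sets of HSPD1 averaged -0.14 to -0.02 in the set of 3, and in the set of 8 from -0.13 with E2-BSA and G15 to 0.32 with ethanol. HSPE1, read by 1 probe set, was at 0.06 with E2-BSA and ICI, -0.27 with E2-BSA and G15, -0.49 with E2-BSA, -0.04 with ICI, 0.13 with G15, 0.15 with BSA, -0.29 with ethanol and -0.35 in the control of the set of 8. In the set of 3 it was at 0.12 with E2-BSA, 0.05 with estradiol and -0.08 in the control. The neighbours thus had their highest values on different arrays, ethanol for HSPD1 and BSA for HSPE1.

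HSPE1 was higher than its partner in both ICI pairs (by 0.31 and 0.55), both G15 pairs (0.49 and 0.22) and the BSA pair (0.51). Only 2 arrays serve as partners in these 5 pairs, the control of the set of 8 in 3 and the second E2-BSA array in 2, and they held the lowest HSPE1 values of all arrays. HSPD1 differed in those pairs by 0.14, 0.04, 0.10, -0.25 and 0.13. The fitted HSPE1 differences were 0.43 ± 0.16 for ICI (limma adjusted p = 0.280) and 0.55 ± 0.20 for BSA against control (adjusted p = 0.270), so none passed. The median of all genes was itself 0.14 for ICI, 0.10 for G15 and 0.17 for BSA. In the BSA pair 9 of 9 members were higher than in the control, as were 82% of all genes, and their median of 0.14 was below the 0.19 of all genes. For E2-BSA against its carrier, limma called 0 of 9 members and 0.308% of all genes. HSPE1 differed there by -0.60 ± 0.20 (adjusted p = 0.230) and HSPB1 by -0.45 ± 0.19 (adjusted p = 0.270), where the median of all genes was -0.19.

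**Figure D4:**
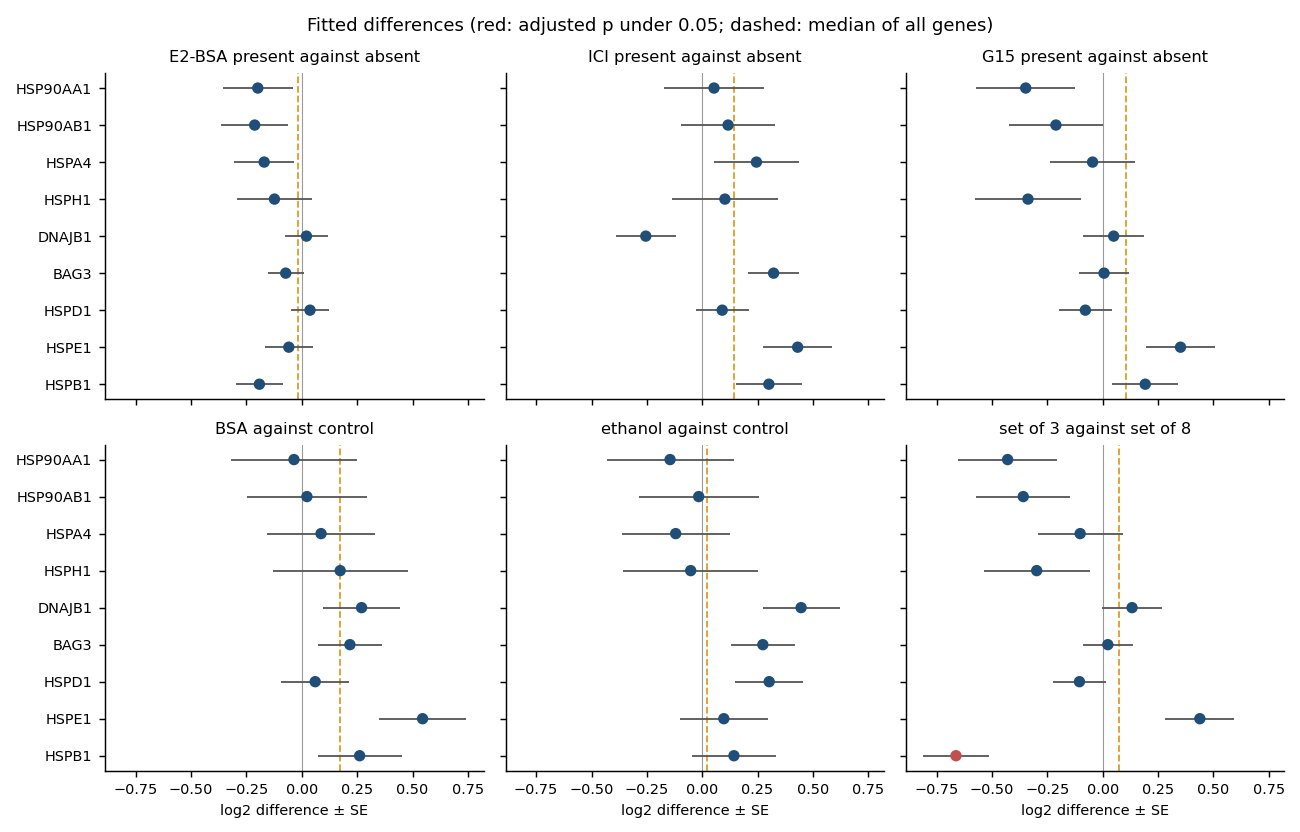
Fitted log2 difference of each gene with its SE in 6 comparisons of the additive limma fit; red marks an adjusted p under 0.05 and the dashed line the median of all genes. HSPB1 in the comparison of the sets, at -0.66, is the 1 value that passes.

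HSPB1 encodes the small heat shock protein Hsp27, and on all 11 arrays it was the 1 member whose values parted the spike-in sets. Its probe set was at -0.70 with E2-BSA, -0.61 with estradiol and -0.53 in the control of the set of 3. In the set of 8 it was at 0.33 with E2-BSA and ICI, -0.04 with E2-BSA and G15, 0.04 with E2-BSA, 0.36 with ICI, 0.52 with G15, 0.40 with BSA, 0.29 with ethanol and 0.05 in the control. The sets did not overlap for HSPB1, which held for 1 of 9 members and for 29.8% of all genes, and for 8 of 24 member probe sets against 28% of all. Without the E2-BSA and G15 array, an alternative added after the data were seen, the sets also did not overlap for HSP90AA1, HSP90AB1 and HSPH1. That made 4 of 9 members against 32.3% of all genes, and 13 of 24 probe sets against 31.3% of all.

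Between the sets, estimated from the E2-BSA and control duplicates, HSPB1 differed by -0.66 ± 0.15 (limma adjusted p = 0.0155), as 1 of 9 members called against 24.1% of all genes. The difference was -0.74 between the E2-BSA duplicates and -0.58 between the controls, and the call was lost without any 1 of these 4 arrays (adjusted p from 0.0605 to 0.163). HSPE1 went the other way, at 0.44 ± 0.16 (adjusted p = 0.0778), and passed in the fit with group means and the replicate block (adjusted p = 0.0454) and after quantile normalization (adjusted p = 0.0430). With that block HSP90AA1 passed too, at -0.43 ± 0.12 (adjusted p = 0.0360). The block thus called 3 of 9 members against 25.7% of all genes, and quantile normalization 2 of 9 against 19.2%. Without the E2-BSA and G15 array, limma called 4 of 9 members against 29.5% of all genes: HSP90AA1 at -0.43 ± 0.10, HSP90AB1 at -0.36 ± 0.10, HSPB1 and HSPE1. The same 4 were called without the array with G15 alone, against 29.6% of all genes. In the comparison of G15 present against absent, HSP90AA1 differed by -0.80 once the array with G15 alone was left out. That value rests on the E2-BSA and G15 array as the only one left with G15. With the E2-BSA and G15 array left out instead, the difference was 0.11.

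Within the set of 3, free estradiol and E2-BSA can each be set beside the first control. With estradiol the 9 members differed from it by -0.13 to 0.20, and with E2-BSA by -0.17 to 0.23. HSPH1 differed by 0.20 with estradiol and by 0.23 with E2-BSA, and HSPB1 by -0.07 and -0.17. Both comparisons share the control array. The ranges of the treatments overlapped, and without replicates in a set the difference between them has no interval of its own. For estradiol against ethanol, whose arrays lie in different sets, limma called 0 of 9 members and 0.0101% of all genes.

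Ethanol, which damages proteins at high concentrations, was the vehicle at 0.1%. Against the control of its set, DNAJB1 was at 0.32 with ethanol and -0.09 in the control, HSPD1 at 0.32 and -0.04, BAG3 at 0.23 and -0.01, and HSPB1 at 0.29 and 0.05. HSP90AA1, HSPA4 and HSPH1 differed by -0.08, -0.07 and -0.10, and HSP90AB1 and HSPE1 by 0.09 and 0.06. DNAJB1 had the largest fitted difference, 0.45 ± 0.17, which did not pass (limma adjusted p = 0.773). Of the Hsp70 and Hsp110 genes outside the group, 6 of 8 measured were above 0 and 0 passed. Among them HSPA6, an Hsp70 with little expression before heat shock, had 1.09 (213418_at) and 0.42 (117_at) with ethanol against -0.03 and -0.22 in the control, a fitted 0.98 ± 0.20 (adjusted p = 0.291). HSPA4L was at -0.64 ± 0.26 and HSPA13 at -0.36 ± 0.14 in the same fit. In the list of other heat-induced HSF1 targets 10 of 10 measured genes were above 0, with a median of 0.36 against 0.02 for all genes, and 0 passed. That list also had 10 of 10 above 0 for BSA (median 0.24) and for G15 (0.16), and 9 of 10 for ICI (0.14). All genes had medians of 0.17, 0.10 and 0.14 there, and 80%, 75.6% and 81.7% of them were above 0. For E2-BSA present against absent 4 of 10 were above 0, and for estradiol 6 of 10. For ethanol over all 10 lists, 69 of 100 genes were above 0, with a median of 0.06, against 54.7% of all genes. Small heat shock proteins had 3 of 7 above 0, with CRYAB at -0.51 ± 0.20, and J-domain proteins 8 of 15. The largest ethanol differences among the other heat-induced HSF1 targets were GADD45B at 1.002, HMOX1 at 0.67 and DEDD2 at 0.55. Their limma adjusted p were 0.182, 0.366 and 0.371. The ethanol array also had the highest hybridisation controls, whose part in these differences was not tested.

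The wider chaperone network was followed in 10 lists of 108 genes, of which 100 were measured. None of the 100 passed for E2-BSA, ICI, G15, BSA, ethanol, estradiol or either interaction, where limma called at most 0.354% of all genes. Between the sets 20 passed as higher and 19 as lower in the set of 3. Of all 19775 genes, 2789 were called higher and 1983 lower, together 24.1%. Among Hsp90 co-chaperones 6 of 14 were lower and 0 higher, with CDC37, which hands kinases to Hsp90, at -1.21 ± 0.14 and PIH1D1 at -1.05 ± 0.12. Among chaperones of the endoplasmic reticulum 5 of 13 were higher and 0 lower, led by the J-domain protein DNAJB9 at 1.99 ± 0.13. Mitochondrial chaperones and proteases went both ways, with 3 of 11 higher and 6 lower, among them AFG3L2 at -0.70 ± 0.11 and GRPEL1 at 0.62 ± 0.10.

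The mean of the 9 members, with the mean of each spike-in set removed, was -0.36 on the array with E2-BSA and G15 and between -0.10 and 0.16 on the other 10. Among all other genes the most similar profiles over 11 arrays were those of PRPF4 (Pearson's r = 0.98), RSRC2 (0.98), LYAR (0.97), IGF2BP2 (0.97) and DDX27 (0.96). Without the E2-BSA and G15 array these values were 0.96, 0.92, 0.91, 0.89 and 0.90. The most opposed were GFOD1 (-0.94), SCIN (-0.89), RTN4RL1 (-0.89), NUDT21 (-0.88) and SLC67A2 (-0.88), with -0.81, -0.74, -0.72, -0.80 and -0.72 without that array. These correlations describe 11 arrays that include 1 low array, and carry no test.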

How the data were processed

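MDA-MB-231 RNA was measured on 11 arrays in 9 groups, taken from the labels. The deposited values are log2 values centred per probe set; the authors' summary and normalization steps and the log base are not given in the sources used here, and base 2 was assumed. No level, background or dim-probe filter could be used, and the number of arrays limits the precision. Probe sets with 1 gene symbol (41091; 1801 had several, 11721 none, 62 were controls) were averaged per gene.

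Tests used limma 3.58.1 in R 4.3.3 (lmFit, eBayes with a trend), with Benjamini-Hochberg adjustment over all genes and a threshold of 0.05. The fit held a term per treatment and one for the spike-in set, which is also the replicate number of the E2-BSA and control duplicates; interactions used group means plus the set. The trend runs over centred values, not over intensity. The additive gene fit was run on simulated data with known changes for E2-BSA, ICI, ethanol and BSA only. The interactions, the fits of single probe sets and the comparison of the sets were not simulated. Probe-set fits were added after the data were seen.

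The members and lists were chosen with earlier results of these data known. All members are described; fitted values are printed for members with an unadjusted p under 0.05. List genes named passed the test or had the largest differences, and the 5 most similar and 5 most opposed genes were taken by Pearson's r. The poly-A values defined the sets. HSPA8 has no probe set of its own and is not analysed by gene.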

Additional observations from a re-analysis of the deposited data

Results flagged for a closer look

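In the fit of single probe sets, 5 of the 24 chaperone probe sets had an E2-BSA difference that was not the same with G15 as without it, by the interaction term itself (limma, adjusted over 54613 probe sets). The interaction was -2.86 for HSPH1 208744_x_at, -2.58 for HSP90AB1 1557910_at, -1.87 for HSP90AA1 211968_s_at, -1.82 for HSPA4 208814_at and -1.52 for HSP90AA1 211969_at. All 5 rest on the single array with E2-BSA and G15, and 2.16% of all probe sets were called lower in the same fit.

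A probe set outside the measured genes, 200800_s_at, is annotated to the inducible Hsp70 genes HSPA1A and HSPA1B and to HSPA1L together. It was at 0.83 on the ethanol array and at 0.10 on the control array of the same set, a difference of 0.73. In that set it was also at 0.53 with G15, 0.43 with E2-BSA and ICI, 0.27 with E2-BSA and G15 and 0.24 with ICI. With BSA it was at 0.01 and with E2-BSA at -0.03. The other HSPA1A and HSPA1B probe sets were at 0.35 (200799_at) and 0.36 (202581_at) with ethanol, against -0.03 and 0.22 in that control. The highest array was ethanol for 200799_at but G15 for 202581_at, at 0.42, which was also at 0.35 with E2-BSA and ICI. Each group had 1 array in the set, so these differences were not tested.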

How the results depend on the processing

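Of 167 alternative values for 17 single differences, 157 kept their direction and side of the threshold (not their size: the HSP90AB1 interaction of E2-BSA with G15 ran from -1.32 to -0.09), 5 lost a call, 4 gained one and 1 turned: the HSPH1 interaction of E2-BSA with G15, 0.69 without _s_at and _x_at probe sets, which leaves only 235573_at. Genes called in that interaction (2) numbered 65 with array medians set equal, 213 with quantile normalization, 103 with the median over probe sets, 15 without _s_at and _x_at probe sets, 68 without genes of low range and 1376 as probe sets. Fitted on single probe sets, 240 were called for BSA (70 genes), 0 for ethanol (17 genes), 201 for E2-BSA against BSA (61 genes), 0 for estradiol against ethanol (2 genes) and 11285 between the sets (4772 genes). Without the replicate block, 0 genes were called for BSA, for ethanol, for E2-BSA against BSA and for estradiol against ethanol. With group means and the replicate block, 3 were called for ICI and 0 for estradiol against ethanol. Quantile normalization gave 2 for ICI, 41 for ethanol and 0 for estradiol against ethanol. Without _s_at and _x_at probe sets ethanol had 10 and estradiol against ethanol 0, which also had 0 with equal array medians. Leaving out 1 array at a time gave 0 to 22 genes for ICI, 0 to 179 for G15, 4 to 76 for BSA, 0 to 19 for ethanol, 0 to 75 for E2-BSA against BSA, 0 to 3 for estradiol against ethanol and 1332 to 5848 between the sets. Of the members, the HSPB1 call between the sets was lost without either E2-BSA or either control array. The E2-BSA by G15 interaction has no test without an E2-BSA or control array, which leaves no residual degrees of freedom, and no value without either G15 array; it was not refitted without other arrays. Only control and E2-BSA share replicate numbers, so a paired check rests on 2 pairs. The causes of these shifts were not tested.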
